A study of Mus musculus with 10 samples.

Results

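The genes described here are Foxa1, Foxa2, Foxa3 and Hnf4a, 4 of 49980 genes with a position in the gene table and all protein-coding. They were chosen by symbol, not by a measured value. Their members are the OTX2 peaks whose authors' nearest-gene entry carries one of the symbols and the peaks whose centre lies within 50 kb of either end of the gene or inside it. In definitive endoderm (DE), 28 of 42711 peaks met the rule, and in epiblast stem cells (EpiSCs) 4 of 6319 did. Every peak that carried a member's name also lay within 50 kb.

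OTX2 is a homeodomain transcription factor of the epiblast and the anterior embryo. Its sites were mapped by CUT&RUN, in which an antibody directs a nuclease to the protein on chromatin and the released fragments are sequenced. The mouse line 7H OTX2-dTAG-EGFP, on a BL6/129 hybrid strain background, carries OTX2 with a tag that anti-HA recognises. In all groups used here except the untagged parental line 5.8 the cells were of that line, so the 2 states share the tagged allele. EpiSCs, which model the epiblast before gastrulation, were grown with FGF2 at 12.5 ng/ml, Activin A at 20 ng/ml and NVP at 175 nM. They were turned into DE by CHIR at 3 µM with Activin A at 40 ng/ml for 16 h, followed by LDN at 100 nM with Activin A at 100 ng/ml for 24 h, and living cells were sorted. Each sample held 500000 cells. There were 2 HA samples per state, 3 IgG samples of EpiSCs and 1 HA sample of parental DE. The HA samples of a state stand behind 1 deposited list. No value at these genes therefore has a replicate spread, no test between the states was possible, and read depth is unknown. The lists hold no expression values, so the cell type labels could not be checked against marker genes.

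Foxa1, Foxa2 and Foxa3 encode forkhead proteins, formerly called HNF3 alpha, beta and gamma, which can bind their sites in compacted chromatin and are known as pioneer factors. Foxa2 is the earliest of them in the embryo and marks the anterior primitive streak, the node and the definitive endoderm. Foxa1 and Foxa3 follow in the gut tube and liver. Hnf4a encodes a nuclear receptor that drives lipoprotein and metabolic genes in visceral endoderm and liver, where it acts together with FOXA proteins.

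Sequence is shown for 4 stretches next to transcript starts. The first and the second are from the only genes of the Foxa2 and Foxa3 windows with an annotated start in a peak, and the others are starts of Foxa1 and Foxa2 themselves, which lay in none. They come from RefSeq promoter windows on GRCm38.p6, which run from 250 bases before to 50 after a transcript start. All 4 genes matched, with 7 windows. The first line is the window of the long non-coding RNA gene 9030622O22Rik (chr2:148040464-148040763, minus strand), and the others show the 250 bases before the start of Mypop (chr7:18990995-18991244, plus strand), Foxa1 (chr12:57546112-57546361, minus strand) and Foxa2 (chr2:148046970-148047219, minus strand). Capitals mark a match to the FOXA motif TGTTTAC (on the opposite strand GTAAACA), except in Mypop, where they mark the bases inside the peaks of both cell states.
9030622O22Rik: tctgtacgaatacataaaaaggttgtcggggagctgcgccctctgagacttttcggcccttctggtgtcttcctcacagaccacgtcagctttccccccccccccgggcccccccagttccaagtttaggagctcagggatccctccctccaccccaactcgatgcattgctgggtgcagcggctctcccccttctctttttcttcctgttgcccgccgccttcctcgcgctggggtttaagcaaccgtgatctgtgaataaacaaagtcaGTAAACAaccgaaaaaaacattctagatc
Mypop: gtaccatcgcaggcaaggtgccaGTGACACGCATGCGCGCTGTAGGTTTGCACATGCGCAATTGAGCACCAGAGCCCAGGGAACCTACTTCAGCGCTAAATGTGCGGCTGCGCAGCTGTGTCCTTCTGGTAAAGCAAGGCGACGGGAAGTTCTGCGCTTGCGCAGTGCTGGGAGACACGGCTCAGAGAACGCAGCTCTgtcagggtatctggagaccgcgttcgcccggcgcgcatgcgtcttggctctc
Foxa1: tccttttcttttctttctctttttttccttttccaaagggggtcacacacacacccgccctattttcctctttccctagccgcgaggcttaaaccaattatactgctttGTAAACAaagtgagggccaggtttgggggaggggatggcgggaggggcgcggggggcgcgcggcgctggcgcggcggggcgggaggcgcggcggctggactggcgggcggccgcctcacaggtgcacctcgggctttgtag
Foxa2: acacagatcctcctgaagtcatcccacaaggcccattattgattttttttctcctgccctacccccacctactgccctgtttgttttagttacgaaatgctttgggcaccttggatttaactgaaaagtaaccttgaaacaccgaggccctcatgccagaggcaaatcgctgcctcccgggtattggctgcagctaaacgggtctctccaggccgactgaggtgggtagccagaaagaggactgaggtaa

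All 300 bases of the 9030622O22Rik window lay inside 1 DE peak and none in an EpiSC peak. In Mypop all 250 bases shown lay in a DE peak and 175 in an EpiSC peak. None of the 7 windows of Foxa1, Foxa2, Foxa3 and Hnf4a overlapped a peak of either state, against 18.3% of all 32851 windows for DE and 6.33% for EpiSC. The OTX2 motif TAATCC (opposite strand GGATTA) was searched on both strands and was found in none of the 7 windows, nor in those of 9030622O22Rik and Mypop. Of all windows 7.06% held it, and of the 6027 windows that overlapped a DE peak 7.98% did. The FOXA motif was found in 1 of the 7 windows, that of Foxa1, with its first base at -141 from the transcript start. The match at 9030622O22Rik began 21 bases past the start, inside the DE peak. Of all windows 3.65% held the FOXA motif, and of those with a DE peak 2.95%. No window named here held both motifs, and a match describes the letters only and is not a site.

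The DE peaks were not spread evenly over the 4 genes. Foxa1 had 12 DE peaks and Foxa2 had 11, whereas Foxa3 had 3 and Hnf4a had 2. In EpiSCs Foxa1 and Hnf4a had none, and Foxa2 and Foxa3 had 2 each, a number reached by 19.8% of protein-coding genes. For scale, 82.8% of the 21900 protein-coding genes had at least 1 DE peak within 50 kb and 40.8% at least 1 EpiSC peak. The presence of a DE peak at 4 of 4 genes, and of an EpiSC peak at 2 of 4, thus sits near these shares. The number of DE peaks is where the genes part. At least 12 DE peaks were found at 3.37% of protein-coding genes and at least 11 at 4.68%, while at least 3 were found at 58.0% and at least 2 at 70.9%. The median over the 4 genes was 7 DE peaks, against 3 over all protein-coding genes, and in EpiSC 1 against 0.

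**Figure D1:**
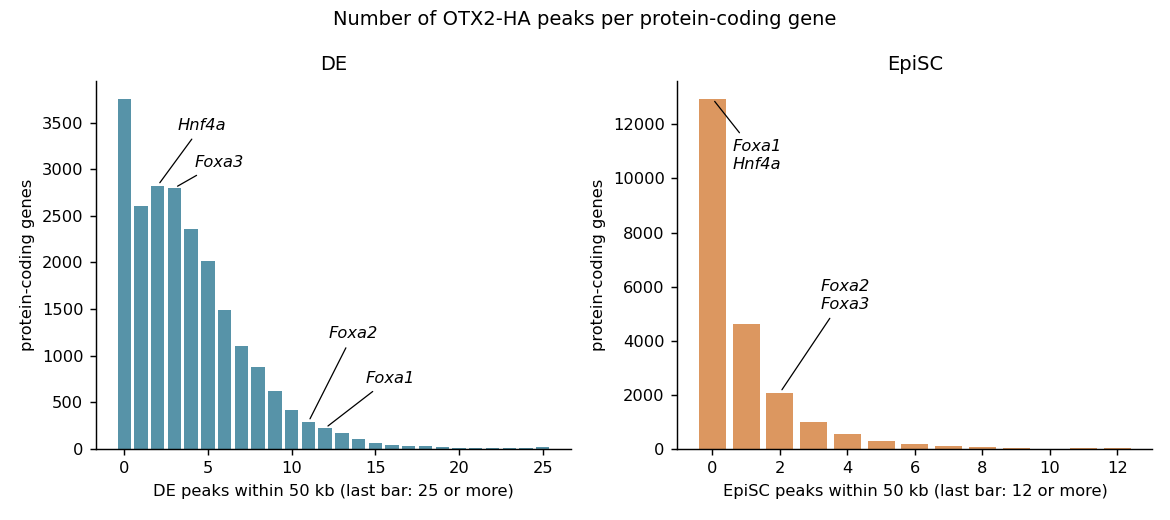
Bars give the number of protein-coding genes (y axis) by their number of OTX2-HA peaks within 50 kb (x axis), for DE on the left and EpiSC on the right, and lines point to the bar that holds each of the 4 genes. Foxa1 and Foxa2, with 12 and 11 DE peaks, lie in the right tail of the DE distribution, and Foxa3 and Hnf4a, with 3 and 2, lie in its main part.

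The order of the counts was not that of gene length. Hnf4a has the longest body of the 4, 66097 bp, and the fewest peaks. Per 100 kb of window there were 11.2 DE peaks at Foxa1, 10.6 at Foxa2, 2.72 at Foxa3 and 1.20 at Hnf4a, against a median of 2.24 over protein-coding genes. At least as dense as Foxa1 were 0.913% of protein-coding genes, and at least as dense as Foxa2 were 1.28%. Close to the genes the order changed at the top, with 9 DE peaks within 20 kb at Foxa2, 6 at Foxa1, 2 at Foxa3 and 1 at Hnf4a. Shares over protein-coding genes were computed at 50 kb only, so those given above do not apply to the 20 kb counts.

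The excess of DE over EpiSC peaks at the genes was close to that of the lists as a whole. The 28 DE and 4 EpiSC peaks give a ratio of 7.00, and the complete lists a ratio of 6.76. When the DE list was cut to its 6319 widest peaks, as many as the EpiSC list holds, 6 remained at the 4 genes, of which 3 lay at Foxa2, 2 at Foxa1, 1 at Foxa3 and none at Hnf4a. At least 3 such wide peaks were found at 3.75% of protein-coding genes, at least 2 at 11.3% and at least 1 at 34.7%. No DE peak and no EpiSC peak at all was found at 17.2% and 59.2% of protein-coding genes, and 42.3% had a DE peak with no EpiSC peak, as Foxa1 and Hnf4a had.

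**Figure D2:**
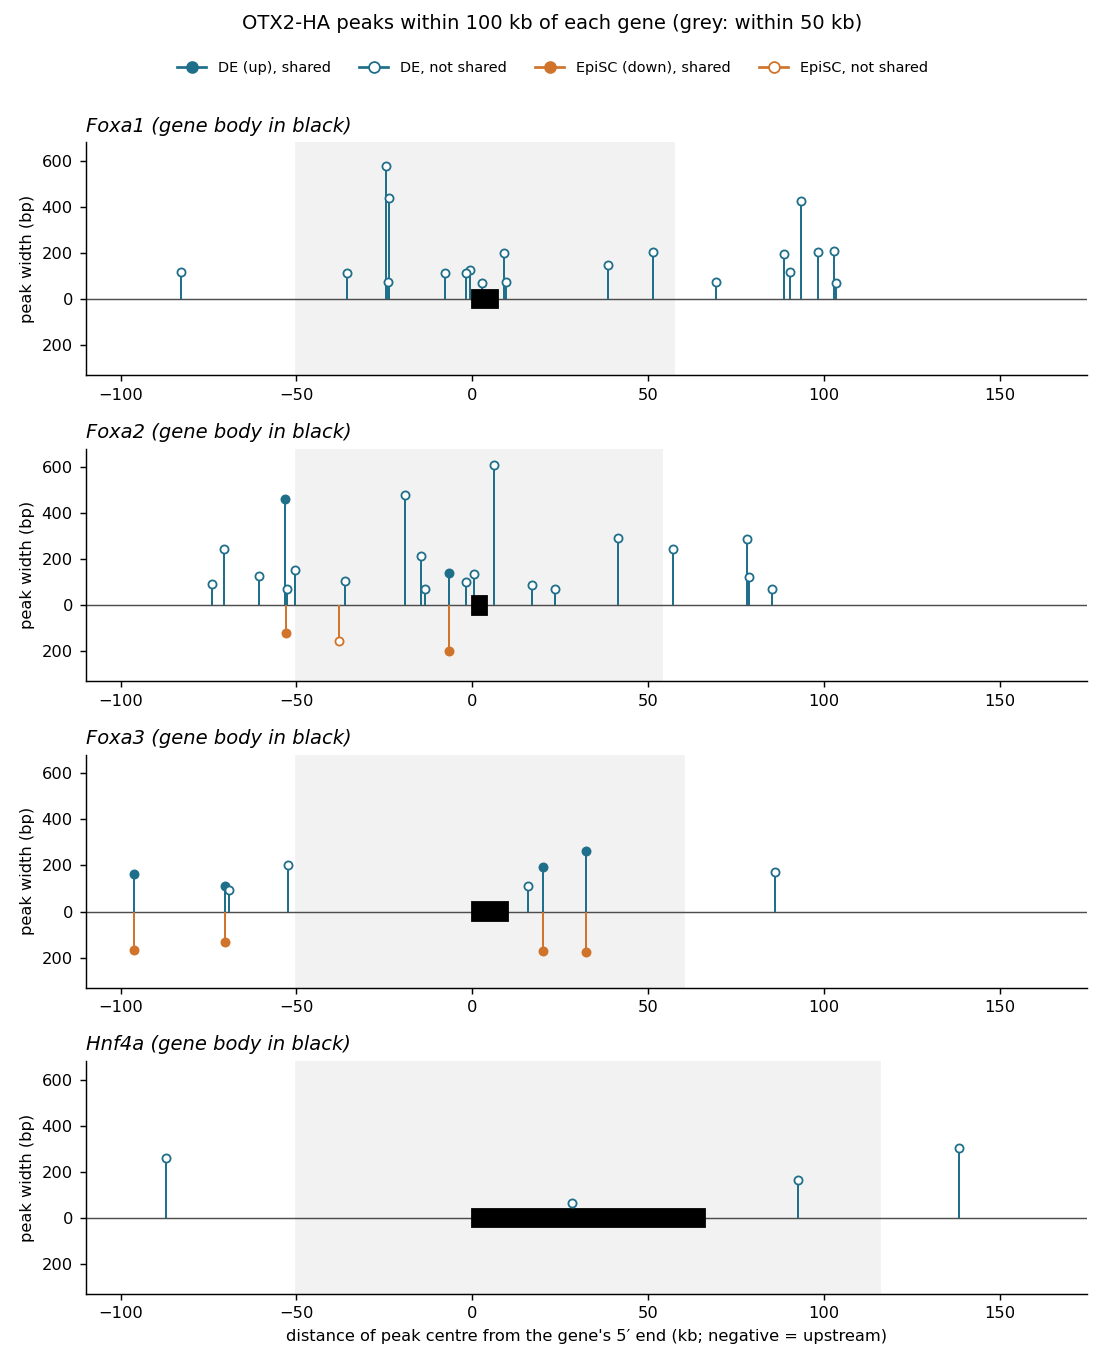
Each stem is an OTX2-HA peak, placed by the distance of its centre from the 5′ end of the gene (x axis, kb, in the direction of the gene), with its width as the height (y axis, bp): DE upward, EpiSC downward, filled where it overlaps a peak of the other state. The grey area is the gene with 50 kb on either side; the 12 Foxa1 and 11 Foxa2 DE peaks lie on both sides of the gene, with 1 inside each, the 3 at Foxa3 lie downstream, and Hnf4a holds 1 inside and 1 downstream.

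Foxa2 (chromosome 2, 148042877 to 148046969, minus strand, 4093 bp) had DE peaks inside it and on both flanks. The widest, 608 bp at chr2:148040453-148041060, lay at the start of 9030622O22Rik, whose body begins 2364 bp beyond the 3′ end of Foxa2 and runs in the same direction for 96055 bp. Only 0.386% of DE peaks were as wide or wider. It was absent from the EpiSC list, and the authors named 9030622O22Rik as its nearest gene. A further 3 DE peaks of 293, 69 and 89 bp lay inside that non-coding gene, at 37469, 19570 and 13008 bp from Foxa2.

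The peaks nearest to the Foxa2 starts were narrower than the one at 9030622O22Rik. A peak of 137 bp at chr2:148046321-148046457 lay inside the gene, centred 580 bp past its annotated 5′ end, and RefSeq places further Foxa2 starts downstream of it. One of 103 bp lay 1672 bp upstream. These were the 2 peaks that carried the name Foxa2 in the authors' deposited table, and neither had an EpiSC counterpart. There, 50.4% of protein-coding genes were named for at least 1 DE peak and 25.8% for at least 2.

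Farther upstream of Foxa2, 5 DE peaks lay between 6542.5 and 36172.5 bp from the gene. The widest of these, 480 bp at chr2:148065817-148066296, was matched or passed in width by 1.37% of the DE list. The others were 140, 70, 216 and 106 bp wide. None of the 5 lay inside an annotated gene, and the authors' deposited table named Gm27420 as nearest to 3 of them and the pseudogene Gm14108 as nearest to 2. Upstream of Foxa2 lay also its 2 EpiSC peaks, of which 1 carried each of these names. The one of 197 bp at chr2:148053385-148053581 enclosed the 140 bp DE peak, which ended at the same base, so that here the EpiSC interval was the wider. The other, of 155 bp at chr2:148084920-148085074, had no DE peak on it, and the closest DE peak in the window, chr2:148083089-148083194, did not touch it.

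Foxa1 (chromosome 12, 57540628 to 57548029, minus strand, 7402 bp) had the most DE peaks and none shared. Its 2 widest, 577 and 440 bp, lay together with a peak of 73 bp at chr12:57571496-57572749, upstream of the gene. The gaps between these 3 peaks were 78 and 86 bp, and the peaks covered 1090 of 1254 bp. They lay inside Ttc6, a protein-coding gene on the opposite strand whose body overlaps that of Foxa1, and inside Gm30518, a long non-coding RNA gene within Ttc6. The centre of the 577 bp peak was 24432 bp from Foxa1. At least as wide were 0.553% of DE peaks for the 577 bp peak and 2.11% for the 440 bp peak.

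The peaks at Foxa1 itself were smaller. A peak of 68 bp lay inside the gene, and peaks of 126 and 113 bp lay 525.5 and 1681 bp upstream of its 5′ end. Beyond the 3′ end were peaks of 202 and 73 bp at 1716.5 and 2205 bp. These 5 carried the name Foxa1 in the authors' deposited table, a number reached by 5.40% of protein-coding genes. None of them had a counterpart in EpiSCs, where no peak carried the name Foxa1, Foxa2, Foxa3 or Hnf4a, against 15.3% of protein-coding genes named at least 1 time.

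The remaining Foxa1 peaks were attributed to neighbours. The authors' deposited table gave 5 to Ttc6, among them peaks of 112 and 115 bp, and 2, of 204 and 149 bp, to the pseudogene Gm2568. The one of 149 bp lay inside the non-coding gene Gm20016. A nearest-gene name does not show which gene a site acts on. The nearest EpiSC peak, 121 bp wide at chr12:57652160-57652280, was 104131 bp from Foxa1.

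Foxa3 (chromosome 7, 19013283 to 19023539, minus strand, 10257 bp) had no peak inside it in either state, and none was named for it. Its window is dense in other genes, with 7 protein-coding genes including Foxa3. All 3 DE peaks lay downstream and carried the names of neighbours. A peak of 264 bp at chr7:18990987-18991250 covered the start of Mypop shown above, and the EpiSC peak there was 175 bp wide and lay wholly inside it. A peak of 192 bp at chr7:19003237-19003428 lay before the start of Irf2bp1 and shared 166 bp with an EpiSC peak of 170 bp. The peak of 110 bp at chr7:19007657-19007766 was found in DE alone and lay 5571.5 bp from Foxa3, the closest of the 3. Both EpiSC peaks of the Foxa3 window were thus kept in DE, at or just before the starts of other genes.

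Hnf4a (chromosome 2, 163506811 to 163572907, plus strand, 66097 bp) has an upstream and a downstream promoter that are used in different tissues, and RefSeq lists starts at both. No peak lay at either. The DE peak inside the gene, chr2:163535123-163535185, was 63 bp wide, and 99.1% of DE peaks were at least as wide. Its centre was at -12001 bp from the downstream start (minus meaning upstream), inside the antisense gene Hnf4aos, which is the name it carried in the authors' deposited table. The second, 166 bp at chr2:163599398-163599563, lay 26573.5 bp past the 3′ end and carried the name Ttpal. The nearest EpiSC peak was 204188 bp away.

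Sharing with EpiSC at the 4 genes was close to that of the whole DE list. Of 28 DE peaks, 3 overlapped an EpiSC peak by at least 1 bp (10.7%, exact Clopper-Pearson 95% interval 2.27 to 28.2%), against 11.7% of the whole DE list. These were 2 of 3 at Foxa3, 1 of 11 at Foxa2, 0 of 12 at Foxa1 and 0 of 2 at Hnf4a. In the other direction 3 of 4 EpiSC peaks were shared (75%, exact interval 19.4 to 99.4%), against 78.8% of the EpiSC list. Both intervals express counting error alone and treat peaks as independent, which neighbours are not.

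In width the DE peaks had a median of 131.5 bp (range 63 to 608 bp), against 138 bp in the whole DE list. The EpiSC peaks at the genes had a median of 172.5 bp (range 155 to 197 bp), against 141 bp in the whole list. The DE peaks ran to both extremes. Of the 28, 4 were at least 400 bp wide (14.3%, against 3.24% of the DE list), 2 each at Foxa1 and Foxa2. All 4 were absent from EpiSCs, but only 11.7% of the whole DE list overlapped an EpiSC peak. The shared share of all DE peaks at least 400 bp wide was not computed. At the other end, 6 of 28 were narrower than any EpiSC peak (21.4%, against 13.6% of the DE list).

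**Figure D3:**
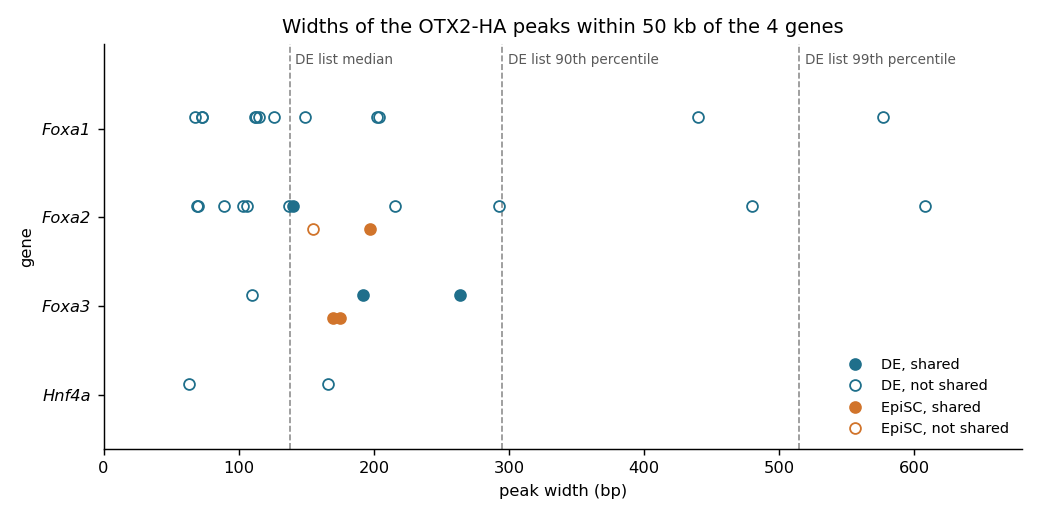
Each circle is an OTX2-HA peak within 50 kb of the gene on the y axis, at its width on the x axis (bp), in DE or EpiSC, filled where it overlaps a peak of the other state. Dashed lines are the median, 90th and 99th percentile of the whole DE list; the 4 peaks above 400 bp belong to Foxa1 and Foxa2 and are open circles.

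By position, 13 of the 28 DE peaks lay upstream of the gene, 12 downstream and 3 inside. Within 1 kb of a start in the promoter table of the same gene were 2 of the 28, the peaks inside Foxa1 and Foxa2. For Foxa1 that table has 1 start, at 57546111, which lies inside the gene body, so the peak 525.5 bp upstream of the 5′ end of the body was at -2443.5 bp from it (minus meaning upstream). The promoter window of any gene was overlapped by 2 of the 28 DE peaks, those at 9030622O22Rik and Mypop, and by 1 of the 4 EpiSC peaks, where 11.7% of the whole DE list and 26.6% of the EpiSC list did so. Counting peaks less than 1 kb apart as 1 left 9 at Foxa1 and 10 at Foxa2. Other genes were not recounted in this way, so no share stands beside these 2 counts. The 50 kb limit fell between DE peaks at 37469 and 50345.5 bp at Foxa2, 44025.5 and 62049.5 bp at Foxa1, 22164.5 and 52518.5 bp at Foxa3, and 26573.5 and 72281 bp at Hnf4a.

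Control peaks were counted in the same windows. The IgG lists of EpiSC replicates 1, 2 and 3 (202, 149 and 200 peaks) and the anti-HA list of parental DE (14 peaks) had no peak within 50 kb of any of the 4 genes. Lists this short over the whole genome would rarely reach 4 such windows, so the absence says little about background there. All 149 intervals of replicate 2 are also in the list of replicate 3, so these are not separate controls. None of the 28 DE and 4 EpiSC peaks overlapped a control peak, and of the whole lists only 0.0819% (DE) and 0.791% (EpiSC) did. The count of 0 allows a share of up to about 10.7% of the 28 (3 counts of the total). For the 4 EpiSC peaks this approximation does not hold, and no limit is given. No IgG list of DE was analysed here.

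Other genes of the endoderm network gave a scale for these counts. Of 16 transcription factors of endoderm and its organs, all 16 had a DE peak within 50 kb and 3 had an EpiSC peak, with a median of 4.5 DE and 0 EpiSC peaks. Over all protein-coding genes the shares were 82.8% and 40.8% and the medians 3 and 0. Gata6 had the most, with 12 DE peaks and no EpiSC peak, the same pair of counts as Foxa1, and Gata4 had 9 and 0. GATA6 and GATA4 are zinc finger factors of extraembryonic and definitive endoderm. Eomes, a T-box factor upstream of endoderm formation, had 9 DE and 5 EpiSC peaks. The other factors with an EpiSC peak were Onecut3, with 7 DE and 2 EpiSC peaks, and Onecut1, with 3 and 1.

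Genes known as targets of FOXA or HNF4A, mostly but not all of liver and visceral endoderm, had counts in the same range. All 21 had a DE peak and 5 had an EpiSC peak, with a median of 4 DE and 0 EpiSC peaks, beside the same shares of 82.8% and 40.8% over all protein-coding genes. Apoe had the most, with 11 DE and 7 EpiSC peaks, followed by Apoc2 with 10 and 5 and Rbp4 with 9 and 0. Apoe, Apoc2, Apom (4 and 3) and Apoa2 (5 and 3) encode apolipoproteins, Rbp4 the plasma carrier of retinol, and Trf, with 4 and 1, transferrin. Genes that lie side by side, such as Apoe and Apoc2, have windows in common, and a peak there counts for each of them. All 16 factors and all 21 of these genes had more DE than EpiSC peaks, as had 79.2% of protein-coding genes.

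**Figure D4:**
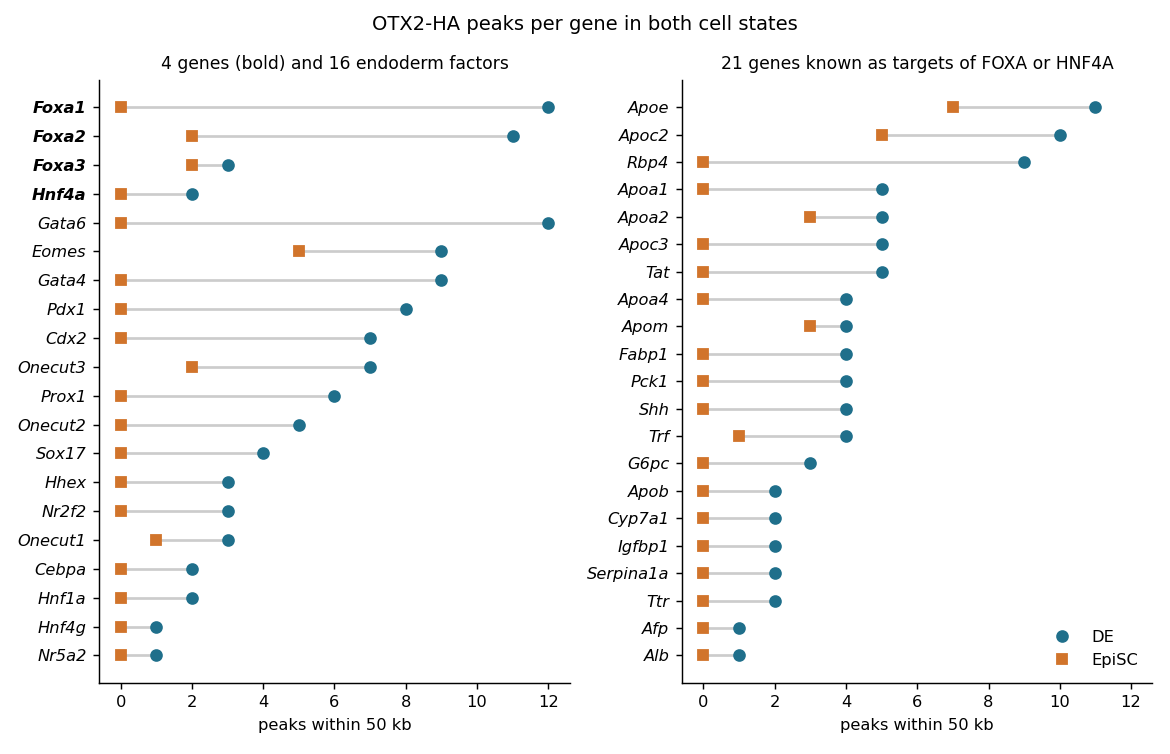
Circles give the DE and squares the EpiSC peaks within 50 kb (x axis) of each gene (y axis), with the 4 genes in bold above 16 endoderm factors on the left and 21 genes known as targets of FOXA or HNF4A on the right. Foxa1 and Gata6 share 12 DE and 0 EpiSC peaks. Hnf4a, with 2 and 0, lies below the median DE count of the factors (4.5) and of the target genes (4).

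Likeness was measured as the summed difference in the 2 peak counts (DE and EpiSC), among the genes of the factor and target lists only. Foxa1 was matched exactly by Gata6, with Gata4 and Rbp4 (9 DE and 0 EpiSC peaks each) at a difference of 3. Of the listed genes, those nearest to Foxa2 were Gata6 at a difference of 3 and Apoc2, Gata4, Onecut3 and Rbp4 at 4. Foxa3 was nearest to Onecut1 (difference 1), then to 5 genes at a difference of 2, among them Apom, G6pc and Trf. Hnf4a was matched by 7 genes with 2 and 0 each, among them Apob, Cebpa and Cyp7a1. Such a match is common for low counts. The pair of Hnf4a was found at 1977 of the 21900 protein-coding genes and that of Foxa3 at 271, whereas the pairs of Foxa1 and Foxa2 were found at 35 and 37.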

How the data were processed

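The authors deposited 1 OTX2-HA peak list per cell state, giving chromosome, start and end without score or depth, merged over 50 bp per the file names. The submitters' processing notes name the build mm10, Bowtie2 2.3.5.1, SAMtools 1.14, Picard 2.26.10, bedtools 2.30 and MACS2 2.2.6, without roles; caller threshold and control are not given in the sources used here. The nearest-gene names are the authors' deposited text; the columns on differential expression were not used. A DE list name on 1 EpiSC label and on the DE IgG label was read as a slip.

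Genes and promoter windows came from RefSeq GRCm38.p6, the assembly behind mm10. Peaks were counted by centre within 50 kb of a gene, shared at 1 bp of overlap, and set beside all 21900 protein-coding genes or the whole list. Counting and overlap code was tested on simulated peaks. Python 3.11.15, pandas 2.3.3 and SciPy 1.17.1 were used. No test was run, as each state is 1 pooled list.

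The genes, lists and alternatives were chosen with earlier results of these data known. Named were the 4 genes with their peaks, the genes named for or holding those peaks, and from each list the 3 genes with most DE peaks, all with an EpiSC peak or without a DE peak (none), and the 3 nearest to each of the 4 genes in both counts, with ties. One gene of the factor list is not reported here and is left out of that list's counts.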

Additional observations from a re-analysis of the deposited data

How the results depend on the processing

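No paired analysis was possible because each state has 1 list pooled over its HA samples, which also means that none of these samples could be omitted in turn. The number of DE peaks at the 4 genes was 18 within 20 kb, 53 within 100 kb, 7 by the authors' nearest-gene name and 6 among the widest DE peaks, against 28. In EpiSC it was 2 within 20 kb, 7 within 100 kb and 0 by the authors' name, against 4. By that name the shared share was 0% of 7 DE peaks. The other 18 of 26 values for the 4 genes together stayed within 1.5 times (counts), the interval (share) or the interquartile range (width). Among them are values that could not move. These are the counts without control-overlapping peaks and the EpiSC count at the minimum width of the EpiSC list. For single genes 21 of 60 counts moved by more than 1.5 times. The 2 DE peaks of Hnf4a fell to 1 within 20 kb, by distance to a transcript start and at the minimum width of the EpiSC list. Leaving out peaks that overlap a control peak removes none here, so it tests nothing. Without read depth, a deeper DE list and more binding cannot be told apart.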

Other observations

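Beyond 50 kb and up to 100 kb from the genes lay further peaks, named here after their values were seen. On the 3′ side of Foxa1, 6 DE peaks lay 81141 to 95998.5 bp from the gene, between 57444595 and 57459584 on chromosome 12, of which 4 lay inside Mipol1. All 6 carried the name of the non-coding gene Gm16246 in the authors' deposited table. The widest of them was 428 bp. There were 20 DE peaks and no EpiSC peak within 100 kb of Foxa1. No share of protein-coding genes was computed at 100 kb. Within 50 kb, 42.3% of them had a DE peak and no EpiSC peak. Upstream of Foxa2, a DE peak of 463 bp at chr2:148099857-148100319, centred 53119 bp from the gene, enclosed an EpiSC peak of 121 bp. It was the widest shared DE peak within 100 kb of the 4 genes. Upstream of Foxa3, peaks at Six5 and Fbxo46 were shared, so that 4 of 8 DE peaks within 100 kb of Foxa3 overlapped an EpiSC peak. The 4 DE peaks within 100 kb of Hnf4a included peaks over the annotated starts of 2900093K20Rik (259 bp) and Serinc3 (303 bp), and none was shared. Over the 4 genes together, 6 of 53 DE peaks within 100 kb were shared (11.3%), against 11.7% of the whole DE list.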
